A study of Homo sapiens with 10 samples.

Results

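The collagen genes are described here across control and doxycycline-treated A375 cells, an established human melanoma line. The members are the probe sets whose gene symbol is COL, a number, A and a number, with nothing after it, in the array's platform annotation. There were 41 of them among 18569 probe sets, 1 for each gene: 10 for fibrillar collagens, 6 for the type IV collagens of basement membranes and 25 for other types. The antisense gene COL18A1-AS1 fell outside the pattern, and COL3A1, COL7A1 and COL17A1 were not analysed here.

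The doxycycline group was plated with the drug at 2 µg/ml, the control group without it, and both were frozen on day 4, with 5 Clariom S arrays each. All cells grew in RPMI1640 with glutamine and serum. Omomyc appears in the series title; it is an altered MYC dimerisation domain known to interfere with MYC-driven transcription. The labels describe neither the construct nor the clone, and no array of doxycycline-treated cells without Omomyc is among the 10, so the effects of the drug and of a transgene cannot be told apart. The labels call the arrays biological replicas without naming separate cultures, so the p-values reflect variation among these arrays, part or all of which may be technical.

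Collagens are secreted proteins in which 3 chains wind into a triple helix, each chain a repeat of glycine followed by a pair of other residues, often proline and hydroxyproline. Fibrillar collagens assemble into the banded fibrils of connective tissue, type IV collagen forms the meshwork of basement membranes, and the other types coat fibrils, form microfibrils or short-chain lattices, or span the plasma membrane. Melanoma cells meet collagen in the basement membrane and dermis, and they also secrete some of their own.

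With doxycycline, a few collagens changed clearly and most did not pass the test. COL5A2, a chain of fibril-nucleating type V collagen, was 2.87-fold higher, COL4A5, a chain of basement membrane type IV collagen, 2.49-fold higher, and COL8A1, a chain of short-chain type VIII collagen, 2.40-fold higher. COL15A1, a collagen of the basement membrane zone, was 1.82-fold lower, COL6A3, the large chain of type VI microfibrils, 1.63-fold lower, and COL9A3, a chain of the fibril-associated type IX collagen, 1.51-fold lower. In all, 9 of 41 collagens rose and 4 fell at an adjusted p under 0.05 in the limma fit across all probe sets. That is 31.7% called, against 38.1% of all probe sets, with 22.0% higher against 20.9% and 9.76% lower against 17.2%. These shares are near or below the background, and no difference from other genes is read from them. A change of at least 2-fold was called in 3 collagens, or 7.32% against 6.47%, all 3 of them higher, where 2.43% of all probe sets were called higher and 4.04% lower by that much. Both groups stood apart without overlap for 8 collagens, or 19.5% against 28.6%.

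**Figure D1:**
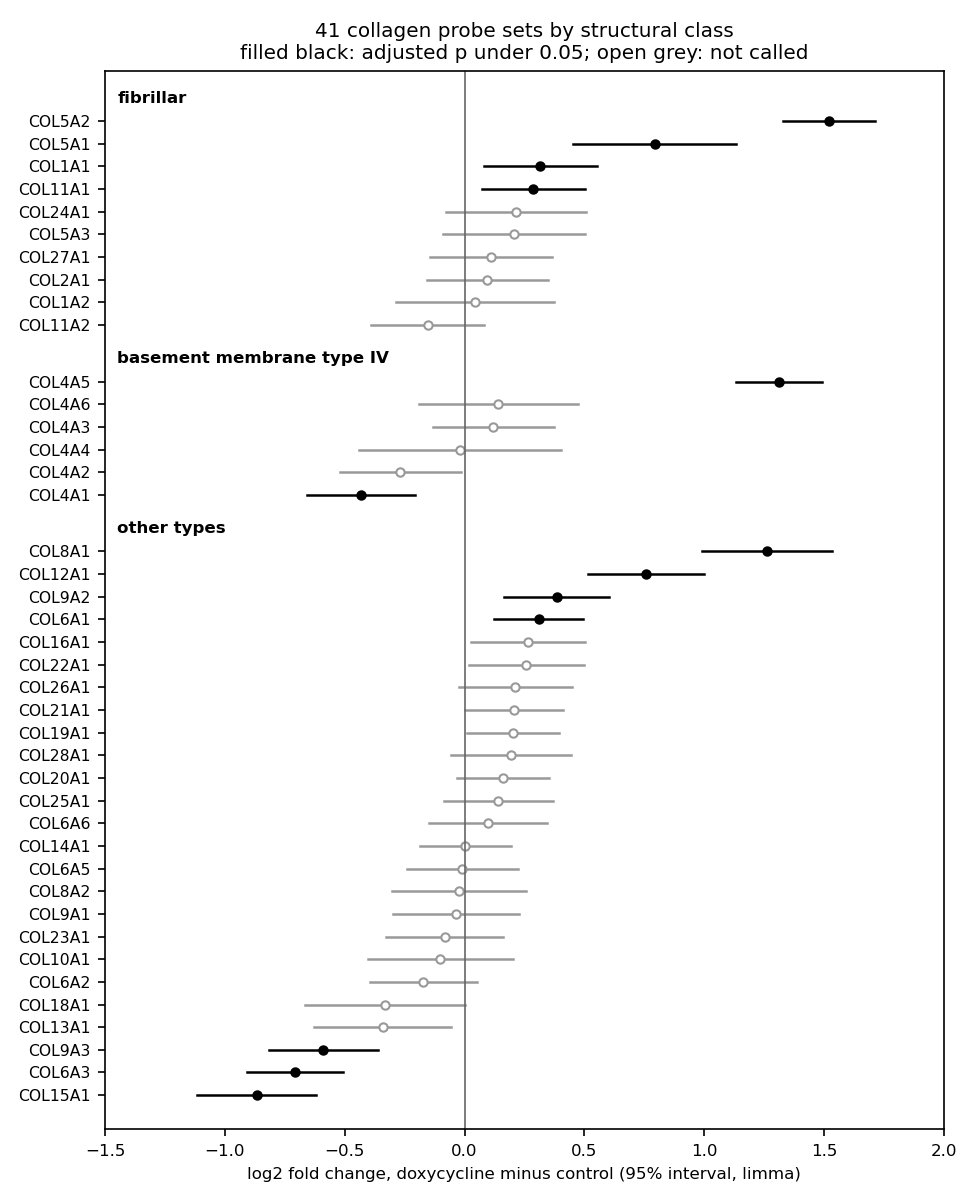
Log2 fold change of doxycycline over control for each of the 41 collagens, by class, with the 95% interval of the limma fit (5 arrays per group). COL5A2, COL4A5 and COL8A1 lie farthest to the right at 1.52, 1.31 and 1.26, and COL15A1 farthest to the left at -0.87; most open grey points have intervals that include 0.

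All values below are log2 signal as deposited, levels carry the SD over 5 arrays and fold changes of single genes the moderated standard error of limma. Probe sets differ in how well they hybridise, so levels are compared between groups and not between genes. Median signal lay between 5.02 and 5.10 and the first quartile between 2.80 and 2.94 on the 10 arrays, and 9 collagens lay below the first quartile on every array, none of them called. Signal this low is close to background, which compresses fold changes. In bulk RNA, fewer expressing cells and less RNA per cell cannot be told apart.

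Of 10 fibrillar genes 4 rose and 0 fell in the limma test, and 0 were lower even at an unadjusted p under 0.05. Among all 18569 probe sets 17.2% were called lower, and 3665 were lower at an unadjusted p under 0.05. With 10 genes, no direction of the class is read from these counts. The count of 4 was 2 without control array 1, 4 or 5, each of which ended the calls of COL1A1 and COL11A1. The median log2 fold change was 0.21, against 0.05 for type IV, 0.10 for the other types and 0.04 for all probe sets, and the classes were set side by side without a test between them. Dim genes had a part in each of these medians. The fibrillar median lay between COL24A1 and COL5A3, the type IV median between COL4A3 and COL4A4, and the median of the other types at COL6A6. COL24A1, COL4A3 and COL6A6 were below the first quartile on all 10 arrays and COL4A4 on 7. The medians were also not stable. Leaving out 1 array gave 0.13 to 0.26 for fibrillar, -0.04 to 0.17 for type IV and 0.04 to 0.15 for other collagens, with type IV below 0 without control array 2 or 5. The fibrillar median was below that of the other types without doxycycline array 5 or control array 1, and with probe sets filtered at the 25th percentile (0.158 against 0.161) or the median (0.11 against 0.26) of signal, so no order of the classes is read from them. The shares called higher were 40% of fibrillar, 16.7% of type IV and 16.0% of other collagens, against 20.9% of all probe sets.

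Type V collagen supplied the fibrillar gene with the largest change, COL5A2. Type V chains co-assemble with type I collagen and set the diameter of fibrils. COL5A2 measured 7.51, 7.58, 7.55, 7.58 and 7.64 on the doxycycline arrays, against 5.98, 6.07, 6.14, 5.80 and 6.26 on the control arrays. The lowest doxycycline array stood well above the highest control array. Its log2 fold change was 1.52 ± 0.09 (adjusted p = 5.31e-09), rank 138 from the top among 18569 probe sets. COL5A1, which supplies most chains of the usual type V trimer, measured 4.44, 5.09, 5.31, 5.05 and 5.09 with doxycycline, against 3.89, 4.50, 4.24, 3.94 and 4.44 in control. Doxycycline array 1 fell within the control range, and the other 4 lay above it. The change was 0.79 ± 0.16 (adjusted p = 9.55e-04). COL5A3, a minor type V chain, averaged 3.50 ± 0.30 with doxycycline and 3.29 ± 0.21 in control, and its change of 0.21 ± 0.14 was not called.

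The main fibril former, type I collagen, moved little in these cells. COL1A1, its major chain, measured 4.95, 4.90, 4.57, 4.60 and 4.69 with doxycycline, against 4.30, 4.41, 4.76, 4.37 and 4.29 in control. Control array 3 reached into the doxycycline range. The change was 0.32 ± 0.11 (adjusted p = 0.0340). It no longer passed without doxycycline array 1 (adjusted p = 0.0747) or 2 (0.0823), and without control array 1 (0.0826), 2 (0.0624), 4 (0.0648) or 5 (0.0794). COL1A2, the partner chain, averaged 4.65 ± 0.37 with doxycycline and 4.60 ± 0.19 in control, a difference of 0.04 with a 95% interval of -0.28 to 0.37.

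Type XI collagen is a cartilage fibril component related to type V. COL11A1 measured 2.72, 2.69, 2.84, 2.87 and 2.69 with doxycycline, against 2.29, 2.83, 2.42, 2.42 and 2.40 in control, and 9 of these values were below the first quartile of their array. The groups overlapped through control array 2. Its change of 0.29 ± 0.10 (adjusted p = 0.0348) was lost without doxycycline array 3 (0.0766) or 4 (0.0771), and without control array 1 (0.0933), 3 (0.0746), 4 (0.0669) or 5 (0.0716). The remaining 5 fibrillar genes were not called. Their log2 fold changes were 0.22 for COL24A1, 0.11 for COL27A1, 0.10 for COL2A1, the cartilage fibril collagen, and -0.15 for COL11A2, beside COL1A2 above.

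In basement membrane type IV collagen, 1 of 6 chains rose and 1 fell, in a class whose genes lie in 3 head-to-head pairs. COL4A1 and COL4A2 form the trimer found in nearly all basement membranes, whereas COL4A3, COL4A4, COL4A5 and COL4A6 form trimers of particular tissues such as kidney, skin and muscle. Each pair is transcribed outward from the sequence between its start sites, which can serve as promoter to both genes. Sequence from the pairs in which a member was called is shown, each read 5′ to 3′ on the plus strand of GRCh38.p14 from RefSeq, with capitals marking GC boxes (GGGCGG) and the letters CCAAT on either strand. The first lies at chr13:110307158-110307283, between the COL4A1 start on the minus strand and the COL4A2 start on the plus strand. The second, at chrX:108439588-108439837, is the 250 bases before the COL4A5 start on the plus strand. It covers only part of the sequence between that start and the nearest COL4A6 start on the minus strand, and the other 129 bases, on the COL4A6 side, are not shown.
COL4A1-COL4A2: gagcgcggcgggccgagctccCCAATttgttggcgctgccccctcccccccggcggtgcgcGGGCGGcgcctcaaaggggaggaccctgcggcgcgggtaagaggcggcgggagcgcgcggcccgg
COL4A5-COL4A6: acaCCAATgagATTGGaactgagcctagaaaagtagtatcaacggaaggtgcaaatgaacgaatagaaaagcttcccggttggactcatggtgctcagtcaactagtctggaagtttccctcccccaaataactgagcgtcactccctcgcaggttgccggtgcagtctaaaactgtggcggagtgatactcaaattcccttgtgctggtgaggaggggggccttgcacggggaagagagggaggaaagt

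The COL4A1-COL4A2 stretch held 1 GC box and 1 CCAAT box in 126 bases at 80.2% G and C. The 250 bases before COL4A5 held 0 GC boxes and 2 CCAAT boxes at 51.2% G and C, whereas GGGCGG was present in a RefSeq window of COL4A6. Where that window lies relative to the stretch between the genes is not given here. Neither printed sequence held the E-box letters CACGTG, the sequence that MYC and MAX prefer. Among the 300-base windows of RefSeq, 250 before and 50 after each start, 30 of the 41 collagens had at least 1 window, 42 in all. CACGTG occurred in 0 of these 42 windows, against 7.26% of all 35116 windows, GGGCGG in 54.8% against 45.0%, and CCAAT in 31.0% against 34.6%. The windows are short and few, some belong to the same gene, and no test was run. No lack or excess of a motif is read from these shares. COL5A2 and COL8A1 had no window in the table.

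The ends of the type IV pairs did not all move alike. COL4A5 measured 4.92, 4.87, 4.76, 4.80 and 5.11 with doxycycline, against 3.59, 3.48, 3.65, 3.58 and 3.60 in control. The groups were separated by more than 1 log2 unit at their nearest arrays. The change was 1.31 ± 0.08 (adjusted p = 1.09e-08). COL4A6, its head-to-head neighbour, measured 3.13, 2.51, 2.61, 3.42 and 2.83 with doxycycline, against 2.80, 2.54, 2.77, 3.02 and 2.66 in control. Its groups overlapped, the change of 0.14 ± 0.15 was not called, and 7 of its values were below the first quartile of their array.

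COL4A1 measured 5.27, 5.77, 5.52, 5.60 and 5.79 with doxycycline, against 6.11, 5.96, 6.11, 6.09 and 5.84 in control. All doxycycline arrays lay below all control arrays, by a narrow margin. The change was -0.43 ± 0.11 (adjusted p = 0.00416). COL4A2, the other chain of that trimer, measured 7.00, 6.61, 6.87, 6.49 and 7.09 with doxycycline, against 7.14, 6.99, 6.99, 6.97 and 7.31 in control. Its change of -0.27 ± 0.12 missed the threshold (adjusted p = 0.0930) and passed it without doxycycline array 5 (adjusted p = 0.0383), which makes 2 type IV genes lower. COL4A3 and COL4A4, mutated like COL4A5 in hereditary nephritis, had log2 fold changes of 0.12 and -0.02 and averages between 2.10 and 2.57 in either group.

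Among the 25 other collagens 4 rose and 3 fell. The 3 short-chain members form open lattices around vessels, in the cornea and in growing cartilage. COL8A1 measured 6.47, 5.62, 6.08, 6.00 and 5.97 with doxycycline, against 4.80, 4.72, 4.82, 4.88 and 4.60 in control. Even the lowest doxycycline array, array 2, lay above all control arrays. The change was 1.26 ± 0.13 (adjusted p = 1.34e-06). COL8A2 and the growth plate collagen COL10A1 were not called, with log2 fold changes of -0.02 and -0.10, and COL8A2 was below the first quartile on all 10 arrays.

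Fibril-associated collagens sit on the surface of fibrils and link them to other matrix. Of 10 measured, 2 rose and 1 fell. COL12A1, which associates with type I fibrils in dense connective tissue, measured 7.19, 7.02, 7.22, 7.58 and 7.23 with doxycycline, against 6.24, 6.47, 6.70, 6.40 and 6.64 in control. The groups did not overlap, and the change was 0.76 ± 0.11 (adjusted p = 7.29e-05). COL9A2, a type IX chain, measured 3.90, 3.74, 3.71, 3.91 and 3.94 with doxycycline, against 3.41, 3.59, 3.20, 3.72 and 3.35 in control. The ranges touched at control array 4, and the change was 0.38 ± 0.10 (adjusted p = 0.00731).

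COL9A3, a partner of COL9A2 in the same trimer, went the other way. It measured 7.59, 7.20, 7.29, 7.34 and 7.35 with doxycycline, against 8.15, 7.79, 7.95, 7.69 and 8.13 in control. No doxycycline array reached the lowest control array, and the change was -0.59 ± 0.11 (adjusted p = 4.06e-04). The other 7 fibril-associated genes were not called. Their log2 fold changes were 0.26 for COL16A1, 0.26 for COL22A1, 0.21 for COL21A1, 0.20 for COL19A1, 0.16 for COL20A1, 0.00 for COL14A1 and -0.03 for COL9A1. COL14A1, COL21A1, COL22A1 and COL9A1 were below the first quartile on all 10 arrays.

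Type VI collagen forms beaded microfibrils close to the cell surface, and its chains diverged. COL6A1 measured 7.92, 7.76, 8.06, 7.88 and 7.99 with doxycycline, against 7.56, 7.69, 7.57, 7.46 and 7.76 in control. Doxycycline array 2 and control array 5 were level at the border, and the change was 0.31 ± 0.09 (adjusted p = 0.0106). COL6A3 measured 2.65, 2.62, 2.66, 2.62 and 2.46 with doxycycline, against 3.16, 3.25, 3.47, 3.53 and 3.14 in control. The groups did not overlap, and the change was -0.71 ± 0.09 (adjusted p = 2.42e-05). All 5 doxycycline values of COL6A3 were below the first quartile of their array, where signal compresses fold changes. COL6A2, the third chain, averaged 6.76 ± 0.17 with doxycycline and 6.93 ± 0.17 in control, and its change of -0.17 ± 0.11 was not called. COL6A5 and COL6A6, alternatives to COL6A3, lay below the first quartile throughout, with log2 fold changes of -0.01 and 0.10.

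Multiplexins are proteoglycan-bearing collagens of basement membrane zones whose ends are cut off as the angiogenesis inhibitors restin and endostatin. COL15A1 measured 3.46, 3.53, 3.76, 3.60 and 3.58 with doxycycline, against 4.25, 4.75, 4.17, 4.40 and 4.70 in control. Every control array exceeded every doxycycline array. The change was -0.87 ± 0.12 (adjusted p = 2.56e-05), the lowest of the family. COL18A1, the source of endostatin, measured 4.93, 4.02, 4.68, 4.35 and 4.08 with doxycycline, against 4.68, 4.50, 4.88, 4.81 and 4.85 in control. The change of -0.33 ± 0.16 was not called over 10 arrays (adjusted p = 0.114) but passed without doxycycline array 1 (adjusted p = 0.0122), the highest of its group. The 3 transmembrane collagens were not called, with -0.34 for COL13A1, -0.08 for COL23A1 and 0.14 for COL25A1. COL13A1 passed without doxycycline array 2 (adjusted p = 0.0436), control array 2 (0.0125) or control array 4 (0.0489). COL26A1 and COL28A1 were not called either, at 0.21 and 0.19.

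**Figure D2:**
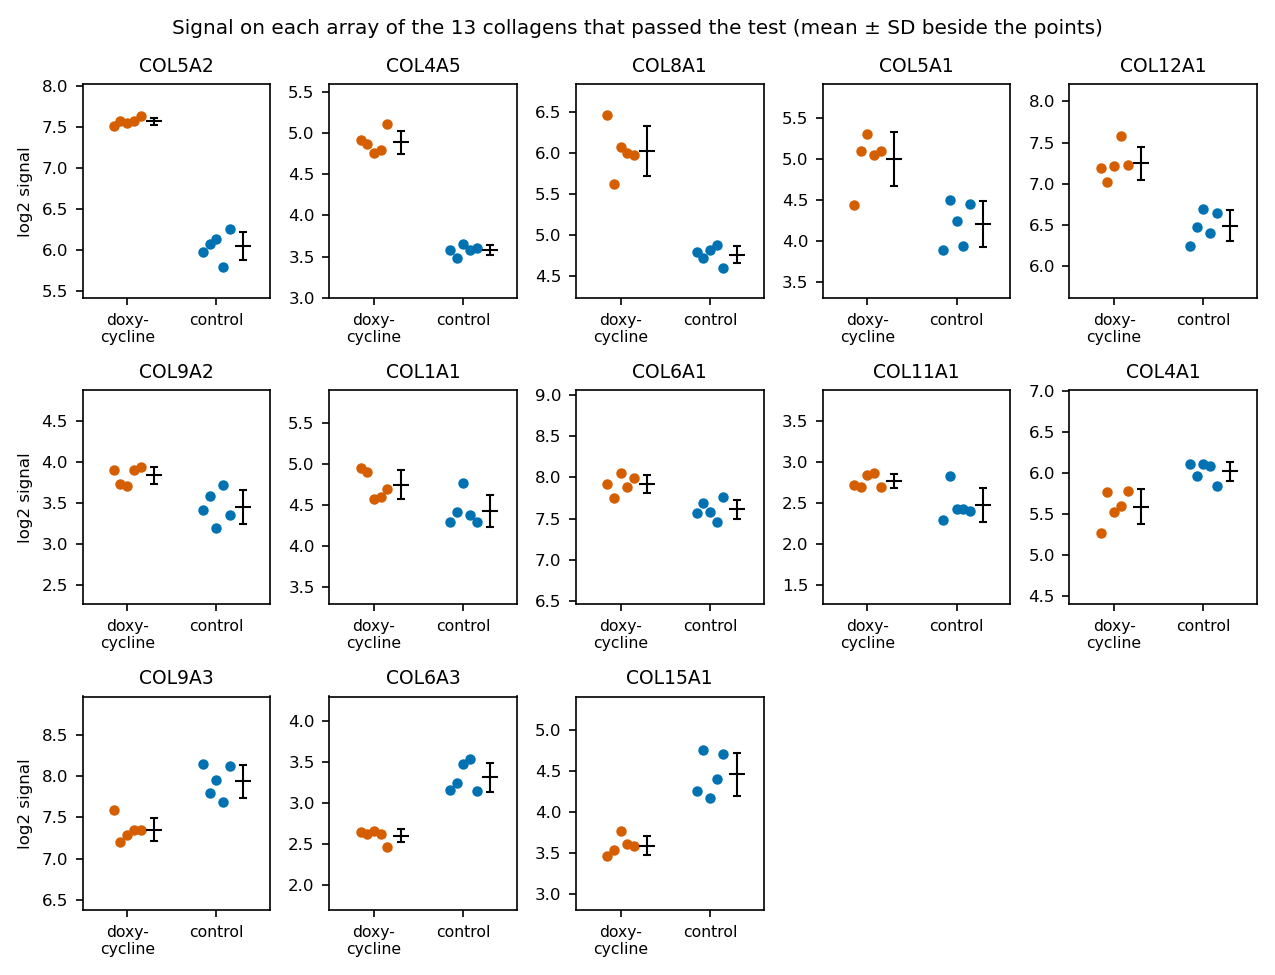
Log2 signal on each array of the 13 called collagens, doxycycline left and control right, with mean and SD beside the points; every panel spans the same 2.6 log2 units. COL5A2, COL4A5 and COL8A1 show wide gaps between the groups, whereas COL5A1, COL9A2, COL1A1, COL6A1 and COL11A1 overlap.

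Because some collagens are built from more than 1 gene product, partner chains were compared within each array, as the difference between their log2 signals. For this, 13 pairs of chains that can share a trimer were chosen with the values of the genes known. They are not all such pairs: COL4A5 with COL4A3 or COL4A4, COL5A3 with its type V partners, and COL6A5 and COL6A6 with theirs were not compared. The test was an exact two-sided permutation of the arrays between groups, whose smallest p with 5 against 5 arrays is 0.00794, adjusted over the 13 pairs. This adjustment does not cover the choice of pairs with the values known. Differences between chains carry an ordinary standard error from the variances of the 2 groups, not the moderated one of limma. The 2 chains changed unequally in 8 of 13 pairs, and in 7 of them the differences did not overlap between groups. The pairs are not independent. Type VI pairs share COL6A1, COL6A2 and COL6A3, and type IX pairs share COL9A1, COL9A2 and COL9A3. Within each of these types 1 difference follows from the others, so the 8 calls are not separate results. A constant added to all values of an array cancels in this difference, though quantile normalization does not and ended 1 of the 8 calls, that of COL9A1 minus COL9A2 (adjusted p = 0.0516). No share was computed over other gene pairs, and with 38.1% of all probe sets called and 28.6% without overlap, nothing particular to collagens is read from these counts.

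In type VI collagen the chains separated in a graded way. COL6A1 gained 0.48 ± 0.08 log2 units on COL6A2 and 1.02 ± 0.14 on COL6A3, and COL6A2 gained 0.54 ± 0.18 on COL6A3 (exact p = 0.00794 and adjusted p = 0.0147 for each). The COL6A1 minus COL6A3 difference ran from 5.13 to 5.53 with doxycycline and from 3.93 to 4.63 in control. In type IX collagen COL9A2 gained 0.97 ± 0.17 on COL9A3 (exact p = 0.00794, adjusted p = 0.0147), with differences of -3.68 to -3.41 with doxycycline and -4.78 to -3.97 in control. COL9A1 minus COL9A2 moved by -0.42 ± 0.15 (exact p = 0.0238, adjusted p = 0.0387). It no longer passed without doxycycline array 1 (adjusted p = 0.0573), 2 (0.0573) or 4 (0.0688), and without control array 1 (0.103), 2 (0.0516), 3 (0.0917), 4 (0.0573) or 5 (0.0903). COL9A1 minus COL9A3 moved by 0.56 ± 0.19 and missed the adjusted threshold (exact p = 0.0397, adjusted p = 0.0573), which it passed without doxycycline array 4 (adjusted p = 0.0387).

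In type V collagen both chains rose, and COL5A1 rose by 0.73 ± 0.16 less than COL5A2 (exact p = 0.00794, adjusted p = 0.0147). Its difference from COL5A2 ran from -3.07 to -2.25 with doxycycline and from -2.09 to -1.57 in control. COL4A5 gained 1.17 ± 0.20 on its head-to-head neighbour COL4A6 and COL8A1 gained 1.29 ± 0.27 on COL8A2 (exact p = 0.00794 and adjusted p = 0.0147 for each). Low signal, which compresses changes, touched 5 of the 8 called pairs: COL4A6 was below the first quartile on 7 arrays, COL8A2 and COL9A1 on all 10, and COL6A3, in 2 pairs, on the 5 doxycycline arrays. Their sizes are therefore not exact, and the part of low signal in them was not tested.

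The other pairs gave no call. COL4A1 minus COL4A2 moved by -0.16 ± 0.20 (exact p = 0.421, adjusted p = 0.456), COL4A3 minus COL4A4 by 0.14 ± 0.22 (exact p = 0.548, adjusted p = 0.548) and COL1A1 minus COL1A2 by 0.27 ± 0.19 (exact p = 0.183, adjusted p = 0.216). COL11A1 minus COL11A2 moved by 0.44 ± 0.16 (exact p = 0.0556, adjusted p = 0.0722) and passed without doxycycline array 2 (adjusted p = 0.0387).

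**Figure D3:**
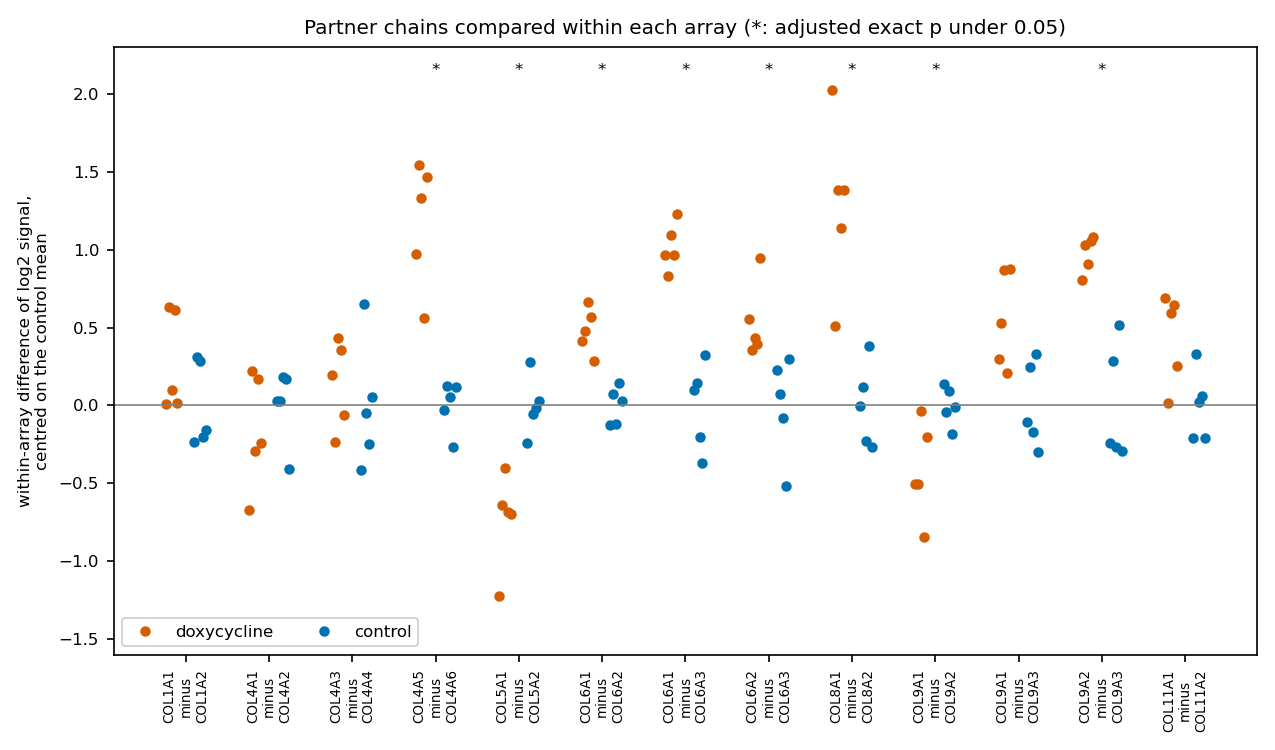
Difference of log2 signal between 2 chains of a trimer on each array, centred on the control mean of that pair, doxycycline left and control right. The doxycycline points lie above the control points for COL4A5 minus COL4A6, the type VI pairs, COL8A1 minus COL8A2 and COL9A2 minus COL9A3, and below them for COL5A1 minus COL5A2.

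The genes that make, process, bind and break down collagen were described from 7 lists, by the counts called in the same fit, beside the background of 20.9% higher and 17.2% lower. That background includes 3481 probe sets below the first quartile on every array, of which 193 were called. A list with a smaller share of dim genes is therefore not like for like with it. In collagen modification and folding 9 of 22 measured genes rose and 5 fell, with a median log2 fold change of 0.13. COLGALT1, which adds galactose to hydroxylysine in collagen, fell by 1.85 ± 0.09 to 7.00 ± 0.18 with doxycycline, against 8.85 ± 0.09 in control. TMEM38B, an endoplasmic reticulum cation channel mutated in brittle bone disease, also fell (-1.22 ± 0.11). P3H2, a prolyl 3-hydroxylase with a preference for type IV collagen (0.92 ± 0.13), and SPARC, a collagen-binding matrix protein (0.76 ± 0.08), rose. The list's other prolyl and lysyl hydroxylase family genes, named after their values were seen, went several ways. P3H1 (0.57), PLOD2 (0.51), P4HA2 (0.41), P4HA1 (0.33) and PLOD1 (0.28) rose, P3H4, a family member without known enzyme activity, fell (-0.75), and P4HA3 (0.12), PLOD3 (0.04) and P3H3 (-0.05) were not called. Their partners CRTAP, the cofactor of P3H1, and P4HB, the shared subunit of the prolyl 4-hydroxylases, fell by 0.57 and 0.28. The procollagen chaperone SERPINH1 (0.34) and MIA3, which loads procollagen into carriers (0.50), rose, and both were likewise named afterwards.

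In propeptide processing and crosslinking 6 of 14 genes rose and 1 fell (median 0.16). LOXL4, a lysyl oxidase that crosslinks fibrils, averaged 10.35 ± 0.11 with doxycycline and 9.24 ± 0.16 in control (1.11 ± 0.09). PCOLCE, which speeds the removal of the C-terminal propeptide (0.76 ± 0.09), and BMP1, the protease that removes it (0.61 ± 0.08), rose together. The transglutaminase TGM2 fell (-1.71 ± 0.09). Of 10 collagen receptors 6 rose and 2 fell (median 0.54). The collagen-binding integrin chains ITGA10 (1.14 ± 0.15) and ITGA2 (1.07 ± 0.08) and MRC2, which takes up collagen for degradation (0.77 ± 0.11), rose, and OSCAR, an immunoglobulin-like receptor, fell (-0.995 ± 0.103). The other receptor that fell was DDR2 (-0.44 ± 0.08), named after its values were seen.

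Collagen breakdown had the highest share of risers among the 7 lists. Of 19 measured genes 14 rose and 1 fell, 73.7% and 5.26%, with a median of 0.82. MMP19, a metalloprotease that acts on basement membrane components, averaged 7.00 ± 0.21 with doxycycline and 5.01 ± 0.15 in control (1.99 ± 0.11, 3.98-fold). CTSK, a lysosomal protease that cuts the triple helix (1.49 ± 0.09), and the collagenase MMP13 (1.13 ± 0.12) rose, MMP13 from a control signal below the first quartile on all 5 arrays. TIMP3, a matrix-bound inhibitor of metalloproteases, was the single member that fell (-1.51 ± 0.08). The inhibitors TIMP1 (0.95 ± 0.09) and RECK (0.82 ± 0.13) rose, and TIMP4 was not called (-0.05), all named after their values were seen. The inhibitors thus went both ways, and the 14 that rose are not all proteases.

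Among the fibril regulators and leucine-rich proteoglycans 8 of 18 rose and 1 fell (median 0.27). Fibronectin, FN1, on which fibrils are laid down (2.39 ± 0.10), the filament adaptor MATN2 (1.81 ± 0.11) and LUM, a proteoglycan that spaces fibrils (1.52 ± 0.10), rose. BGN, a related proteoglycan that binds type I and type VI collagen, fell (-2.04 ± 0.10). Of the basement membrane partners of type IV collagen 6 of 13 rose and 2 fell (median 0.26). NID2 (1.67 ± 0.11) and NID1 (0.63 ± 0.08), which bridge laminin and type IV collagen, and the laminin chain LAMA4 (0.55 ± 0.09) rose, and the laminin chain LAMA1 fell (-1.06 ± 0.11). The control signal of NID2 was below the first quartile on all 5 arrays. In the TGF-beta list, whose ligands are known to induce collagen genes in fibroblasts, 7 of 16 rose and 2 fell (median 0.16). TGFBR3, a co-receptor (0.98 ± 0.09), SKIL, a repressor induced by the pathway (0.95 ± 0.12), TGFBI, a collagen-binding target gene (0.69 ± 0.08), and the ligand TGFB1 (0.67 ± 0.09) rose. The 2 that fell, LTBP4 (-0.40 ± 0.14) and TGFBR1 (-0.31 ± 0.11), were named for this small count. The number that fell was 0 without doxycycline array 1 or 2 or control array 1, 2, 3 or 5, and 1 without any other array.

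**Figure D4:**
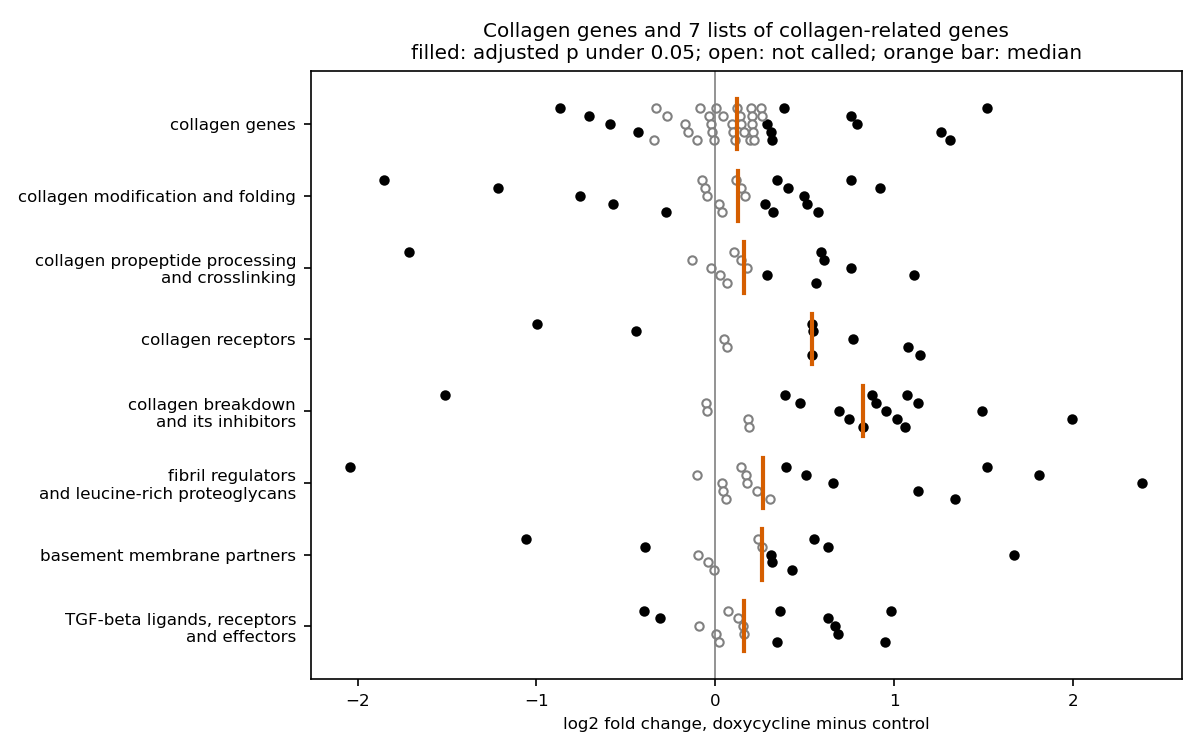
Log2 fold changes of the 41 collagens and of the measured members of 7 related lists, filled where called, with the median of each as an orange bar. The collagens cluster around 0.12, and collagen breakdown has the median farthest from 0, at 0.82.

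Markers of other cell types were read on the same arrays, because fibroblasts are a rich source of collagen RNA. Of 13 fibroblast markers 5 rose and 1 fell. PDGFRA (1.64 ± 0.14), LUM, which is also a fibril regulator above, PDGFRB (1.16 ± 0.10), ACTA2 (0.51 ± 0.10) and DCN (0.40 ± 0.12) rose. TWIST1 fell (-0.30 ± 0.09), and the other 7 were not called, with log2 fold changes of -0.08 to 0.36. The summed linear signal of the 13 ran from 477 to 520 with doxycycline and from 331 to 359 in control. THY1 and DPT stayed below the first quartile on all 10 arrays. The part of such markers in the collagen changes was not tested. Of 8 endothelial markers 1 rose, KDR (summed signal 187 to 238 with doxycycline and 139 to 174 in control), of 6 keratinocyte markers 1 rose, KRT5 (74.1 to 90.0 with doxycycline and 61.2 to 87.5 in control), and of 4 Schwann cell markers 0 were called in the limma test, with 1 higher at an unadjusted p under 0.05. Of 9 melanocyte lineage markers 3 rose and 0 fell in the limma test (0 also at an unadjusted p under 0.05). The summed linear signal of the 9 ran from 1027 to 1162 with doxycycline and from 783 to 841 in control. Each sum weighs the brightest probe sets most. Those were SOX10 (0.19, not called), MITF (1.21) and S100B (0.26) here, and ACTA2, PDGFRB, PDGFRA and TWIST1 among the fibroblast markers with doxycycline. SOX10, S100B and MITF were above the array median throughout, whereas the pigment genes PMEL, MLANA, TYR, TYRP1 and GPR143 were below the first quartile on all 10 arrays, although TYR counted among the 3 that rose. Shares called higher were 38.5% of fibroblast, 12.5% of endothelial, 16.7% of keratinocyte, 0% of Schwann cell and 33.3% of melanocyte markers. Over all probe sets 20.9% were called higher. Called lower were 7.69% of fibroblast markers and 0% of the other marker lists, against 17.2%. The lists are short, and no shift of cell type is read from these shares.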

How the data were processed

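RNA of 10 samples was measured, 1 Clariom S array each. The deposited values are log2 expression values made by the authors with RMA, which normalizes between arrays, per the submitters' processing notes. Because of that scaling, a shift in RNA content per cell cannot be seen. For the software version, probe set filters and genome build, the sources used here give nothing. Precision is limited by the number of arrays.

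Doxycycline was compared with control in limma 3.58.1 (R 4.3.3, lmFit and eBayes), with group as the only term, no filter, and p-values adjusted by Benjamini and Hochberg's method across 18569 probe sets; a call is an adjusted p under 0.05. The platform annotation gave 17511 probe sets 1 symbol, 0 several and 1058 none. The members and lists were chosen with earlier results of these data known, and the chain pairs after their values were seen. By rule, values on each array were given for collagens called with a log2 fold change of at least 1, for the highest mean and the largest called change of each class, and up to 4 called members of each list were named by size of change. Values on each array of the other called collagens, of COL4A6 and of COL18A1, and the marker genes named, were added after the values were seen. Chain pairs were tested by exact permutation. Promoter windows are RefSeq's. The limma fit was tested on simulated data. Replicate numbers did not pair the arrays (correlations of deviations -0.44 to -0.01). Alternatives were filters on dim probe sets, 2 scalings, variance priors, array weights, a replicate block and leaving out each array.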

Additional observations from a re-analysis of the deposited data

Results flagged for a closer look

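Single arrays that stood apart from the other 4 of their group by Dixon's criterion at the 95% level were found in 12 of 138 groups checked (8.70%), where chance gives about 5%. They are given as values. Among called collagens, COL1A1 reached 4.76 on control array 3, against 4.29 to 4.41 on the other control arrays, COL11A1 reached 2.83 on control array 2, against 2.29 to 2.42, and COL6A3 fell to 2.46 on doxycycline array 5, against 2.62 to 2.66. Among collagens not called, COL19A1 reached 7.65 on control array 5 (others 7.23 to 7.33) and COL28A1 3.66 on control array 4 (others 3.27 to 3.36). COL1A2 was at 4.28 on control array 2 (others 4.62 to 4.76), COL6A2 at 6.64 on control array 4 (others 6.94 to 7.06) and COL14A1 at 2.03 on doxycycline array 3 (others 2.24 to 2.29). In the related lists, LUM was at 3.71 on control array 1 (others 3.36 to 3.42), NID1 at 10.64 on doxycycline array 2 (others 10.76 to 10.81), SPARC at 11.15 on doxycycline array 4 (others 11.29 to 11.34) and TGFBR3 at 5.62 on doxycycline array 3 (others 5.77 to 5.83).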

How the results depend on the processing

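Of the alternatives run, 8 changed a setting and 10 left out 1 array. Across them, 11 of the 13 called collagens were called in every setting that held them, 21 collagens were called in none, and no call changed sign. COL1A1 was also lost with an intensity trend (adjusted p = 0.0578), array weights (0.130) and the replicate block (0.0730), and COL11A1 with quantile normalization (0.0811), the trend (0.0544) and the block (0.0634). COL4A2, COL13A1, COL16A1, COL18A1, COL19A1, COL21A1 and COL22A1 were called in some settings. Leaving out 1 array gave 2 to 4 fibrillar genes higher, 1 to 2 type IV genes lower, 0 to 1 TGF-beta genes lower, COL9A1 minus COL9A2 of -0.51 to -0.31, COL9A1 minus COL9A3 of 0.48 to 0.64 and COL11A1 minus COL11A2 of 0.38 to 0.55. Fibrillar genes called higher were 2 with the trend and 2 with the replicate block, a block that also gave 2 type IV genes lower and 1 TGF-beta gene lower and changed no other count by over 1.5 times. Array weights gave 5 other collagens lower. TGF-beta genes lower were 0 with array medians subtracted and 1 with quantile normalization, under which COL9A1 minus COL9A2 was -0.41 and missed the threshold. A filter at the median signal, which removes dim genes, left 1 fibrillar gene higher, 0 type IV genes higher and 2 lower, 1 other collagen lower, 1 receptor lower, 9 breakdown genes higher, 4 fibril regulators higher and 1 basement membrane partner lower, with medians of 0.11, -0.35 and 0.26 for fibrillar, type IV and other collagens. The filter at the 25th percentile gave a type IV median of -0.27. Beyond the fewer probe sets kept by the filters and the fewer arrays left, the cause was not tested. The alternatives for chain pairs were chosen after seeing the data.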
